A study of Mus musculus with 6 samples.

Results

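The genes of oxidative phosphorylation were examined in bulk RNA-seq of bone from aged mice on 2 diets. The members are the genes whose table entry carries a protein-coding transcript type and whose symbol names a structural subunit of a respiratory complex (mt-Nd, mt-Cytb, mt-Co, mt-Atp, Nduf a to c, s and v, Sdh a to d, Uqcr, Cox4 to Cox8 and Atp5). This rule gave 96 of the 32000 genes of the table, 13 encoded by the mitochondrial genome (mt) and 83 by the nucleus. Complex I held 7 mt and 36 nuclear members, complex II 4 nuclear members, complex III 1 and 8, complex IV 3 and 18, and complex V 2 and 17. All animals were male C57BL/6J mice aged 18 months. The CD group (libraries CD1, CD2 and CD4) received a standard chow, which the labels call a chewing diet, for 12 months and the HFD group (libraries HFD2, HFD3 and HFD4) a high-fat diet for as long. The labels call the tissue cortical bone, while the study also speaks of bone particles and of marrow cells of femurs and tibias. Nothing in the labels states that each library is a separate animal, so the spread behind each p-value is that among these 6 samples and could be technical.

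The respiratory chain of the inner mitochondrial membrane passes electrons from NADH (complex I) and succinate (complex II) through complex III to oxygen at complex IV, and ATP synthase (complex V) uses the proton gradient that complexes I, III and IV build. Complex II is made by nuclear genes alone, while the other complexes mix nuclear subunits with a core read from mitochondrial DNA. Muscle, heart and brown fat are known for high levels of these subunits, and a few subunits of complex IV have a heart and muscle form besides the common form.

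The sequences of the mt members bear on how they can be counted, because a stretch of the nuclear genome is a copy of mitochondrial DNA. The annotation places 7 genes in this copy at chr1:24611535-24616197 on the minus strand (GRCm38). In the 60 bases shown here for 2 pairs, from the GENCODE M21 transcripts, capitals mark the bases that differ between the mt gene and its copy. The pair of mt-Nd3 differed at 1 base and that of mt-Co1 (bases 1054 to 1113 of its transcript) at 6.
mt-Nd3: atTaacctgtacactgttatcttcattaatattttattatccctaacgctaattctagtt
Gm28438: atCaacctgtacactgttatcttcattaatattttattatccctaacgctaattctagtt
mt-Co1: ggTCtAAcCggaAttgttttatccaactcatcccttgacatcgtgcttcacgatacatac
Gm29216: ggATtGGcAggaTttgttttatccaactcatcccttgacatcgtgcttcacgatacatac

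Over the whole of each copy, 5 of the 7 were identical to their mt gene along all aligned bases. These were Gm28439 (876 of the 1378 bases of mt-Nd4), Gm10222 (294 bases, mt-Nd4l), Gm28437 (783 bases, mt-Co3), Gm10925 (678 bases, mt-Atp6) and Gm28661 (681 bases, mt-Co2). Gm28438 shared 344 of 345 bases with mt-Nd3, and Gm29216 shared 486 of 492 with mt-Co1. The table gave the copies large counts of their own. The count of the copy came to 96.6 to 98.8% of the mt gene's count for Gm10222 over the 6 libraries. It came to 96.4 to 98.6% for Gm28438, 95.5 to 97.4% for Gm28437, 94.8 to 97.6% for Gm28661 and 98.5 to 104% for Gm10925. For the 2 copies that cover only a piece of their gene it was lower, at 34 to 37.2% for Gm28439 and 11 to 13.2% for Gm29216. The 7 copies together took between 4.19% (HFD2) and 9.93% (HFD4) of a library's counts. The sources used here do not settle whether reads were counted at both places or divided between them. The levels of these 7 mt members are thus uncertain by up to the count of the copy. The 6 others (mt-Nd1, mt-Nd2, mt-Nd5, mt-Nd6, mt-Cytb and mt-Atp8) have no such gene in the copy. However, mt-Atp8 (chrMT:7766-7969) lies between mt-Co2 and mt-Atp6, which both have a copy, and overlaps mt-Atp6. Its level may therefore share this uncertainty.

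**Figure D1:**
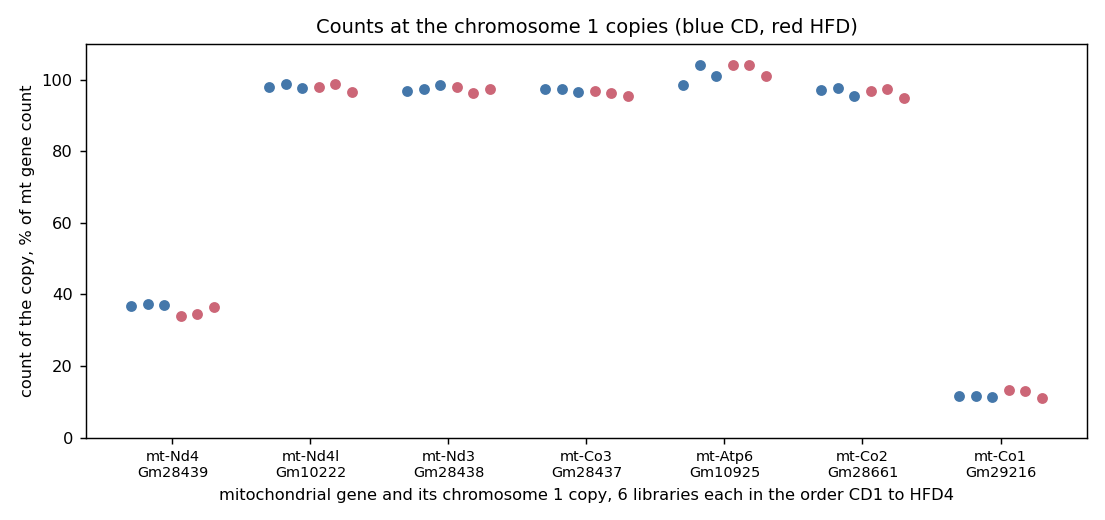
Count of each chromosome 1 copy as a percent of the count of its mitochondrial gene (vertical axis), with 1 point per library, blue for CD and red for HFD. The points of 5 copies sit between 94.8 and 104%, those of Gm28439 between 34 and 37.2% and those of Gm29216 between 11 and 13.2%.

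The 13 mt members took a large share of every library and varied together between libraries. They took 37.9, 15.3 and 28.1% of the counts of CD1, CD2 and CD4, and 15.5, 15.6 and 38.6% of HFD2, HFD3 and HFD4. CD1, CD4 and HFD4 were thus high and the other three libraries low, and the diet groups overlapped. The largest was mt-Co1, the catalytic subunit of cytochrome c oxidase (chrMT:5328-6872). Its level, in FPKM (fragments scaled to gene length and library depth, the scale used here between genes), was 65756, 28828 and 53058 in the CD libraries and 30898, 28402 and 70373 in the HFD libraries. mt-Cytb, the cytochrome b of complex III (chrMT:14145-15288), had 35952, 13853 and 25572 FPKM in CD and 13877, 14968 and 36171 in HFD. Each of these 2 genes had its 3 highest values in CD1, CD4 and HFD4.

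The same order of libraries held in the other mt members. Between libraries, levels are given as TMM-scaled CPM, the counts scaled to the library total and then by edgeR's trimmed mean of M values (TMM), in the unit of CPM. mt-Nd1, a membrane subunit of complex I, had 60100, 11683 and 26965 TMM-scaled CPM in CD and 10083, 10751 and 42528 in HFD, the widest span of the 13 (5.96-fold). mt-Co3 had the narrowest span (4.42-fold), with 32450, 7342 and 16117 in CD and 7462, 7418 and 26206 in HFD. All 13 members had CD1, CD4 and HFD4 as their 3 highest libraries, whether on TMM-scaled CPM, on plain CPM or on CPM of a total without the mt genes and copies. Among all tested genes 8.47% had this set on TMM-scaled CPM. The make-up of the mt pool moved little. mt-Co1 held 30.5 to 35.4% of the mt counts, mt-Cytb 11.8 to 12.6% and mt-Nd4l, the most variable, 0.944 to 1.21%, a span of 1.28-fold. mt-Atp8 and mt-Atp6, and mt-Nd5 and mt-Nd6 on opposite strands, overlap in the genome, and the use of strand in counting is unknown, so reads in these overlaps cannot be assigned.

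**Figure D2:**
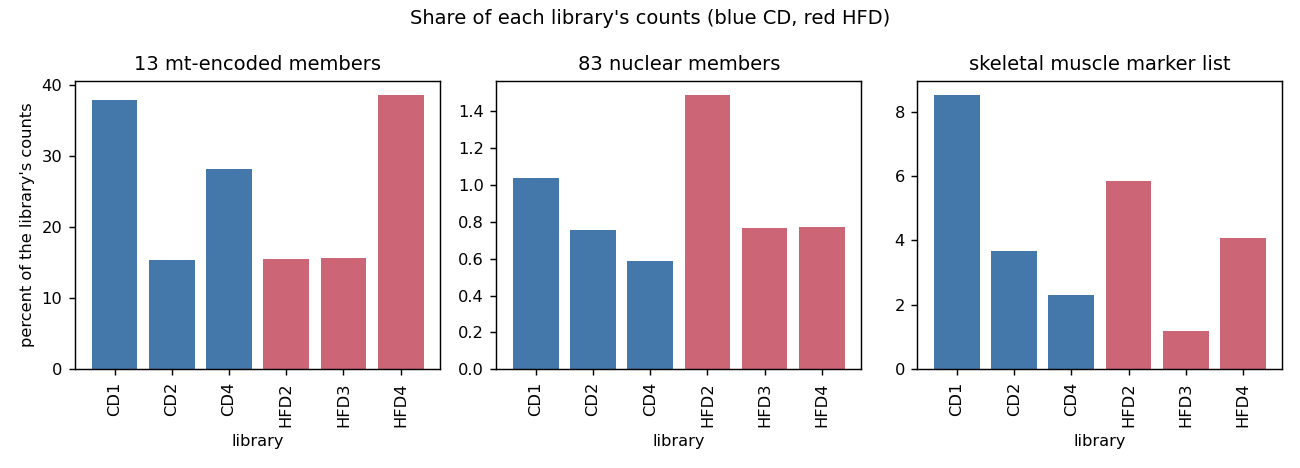
Percent of each library's counts (vertical axis) taken by the 13 mt-encoded members, the 83 nuclear members and the skeletal muscle marker list, blue for CD and red for HFD. The mt members are highest in HFD4 (38.6%) and CD1 (37.9%), the nuclear members in HFD2 (1.49%) and the muscle list in CD1 (8.52%).

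The nuclear members made up a far smaller share and followed another order. They took 1.04, 0.755 and 0.589% of the counts of CD1, CD2 and CD4, and 1.49, 0.765 and 0.775% of HFD2, HFD3 and HFD4. Their highest share was in HFD2, a library with few mt counts, and their lowest in CD4, a library with many. The ratio of mt to nuclear member counts, which does not depend on the scaling, was 36.5, 20.3 and 47.7 in CD and 10.4, 20.4 and 49.8 in HFD. It spanned 4.78-fold, and its group means of 34.8 ± 13.8 (SD, n = 3) for CD and 26.9 ± 20.5 (SD, n = 3) for HFD lay within the spread of the libraries. By complex, the ratio of summed FPKM was 19.8 to 103 for complex I, 14.2 to 69.3 for complex III, 24.6 to 114 for complex IV and 12.2 to 64.8 for complex V, in each case lowest in HFD2 and highest in HFD4.

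On TMM-scaled CPM the nuclear members moved together. Their sum was 16206, 6099 and 6247 in CD and 11763, 5989 and 9358 in HFD, so that CD1, HFD2 and HFD4 stood above the other three. Of the 82 tested nuclear members, 78 (95.1%) had these as their 3 highest libraries, against 10% of all tested genes. The count was 77 (93.9%) when CPM were taken on a total without mt genes and copies. On plain CPM, where the mt share enters the denominator, it was 38 (46.3%, against 3.76% of all genes), and 19 members had CD1, HFD2 and HFD3 instead. All 36 members of complex I, 4 of complex II, 8 of complex III and 17 of complex V had this set on TMM-scaled CPM, and 13 of 17 tested in complex IV. Across the 6 libraries, which share their scaling and depth among all genes, the Pearson correlation of a nuclear member's log2 level with the log2 nuclear sum had a median of 0.99 and exceeded 0.9 for 76 of 82. On TMM-scaled CPM, where a library's scaling factor enters both sums, the log2 mt sum and the log2 nuclear sum correlated at 0.55. This value holds for that scale only. On shares of the counts, HFD2 had 15.5% mt and 1.49% nuclear counts, and CD4 had 28.1% and 0.589%. The correlation of the shares was not computed.

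**Figure D3:**
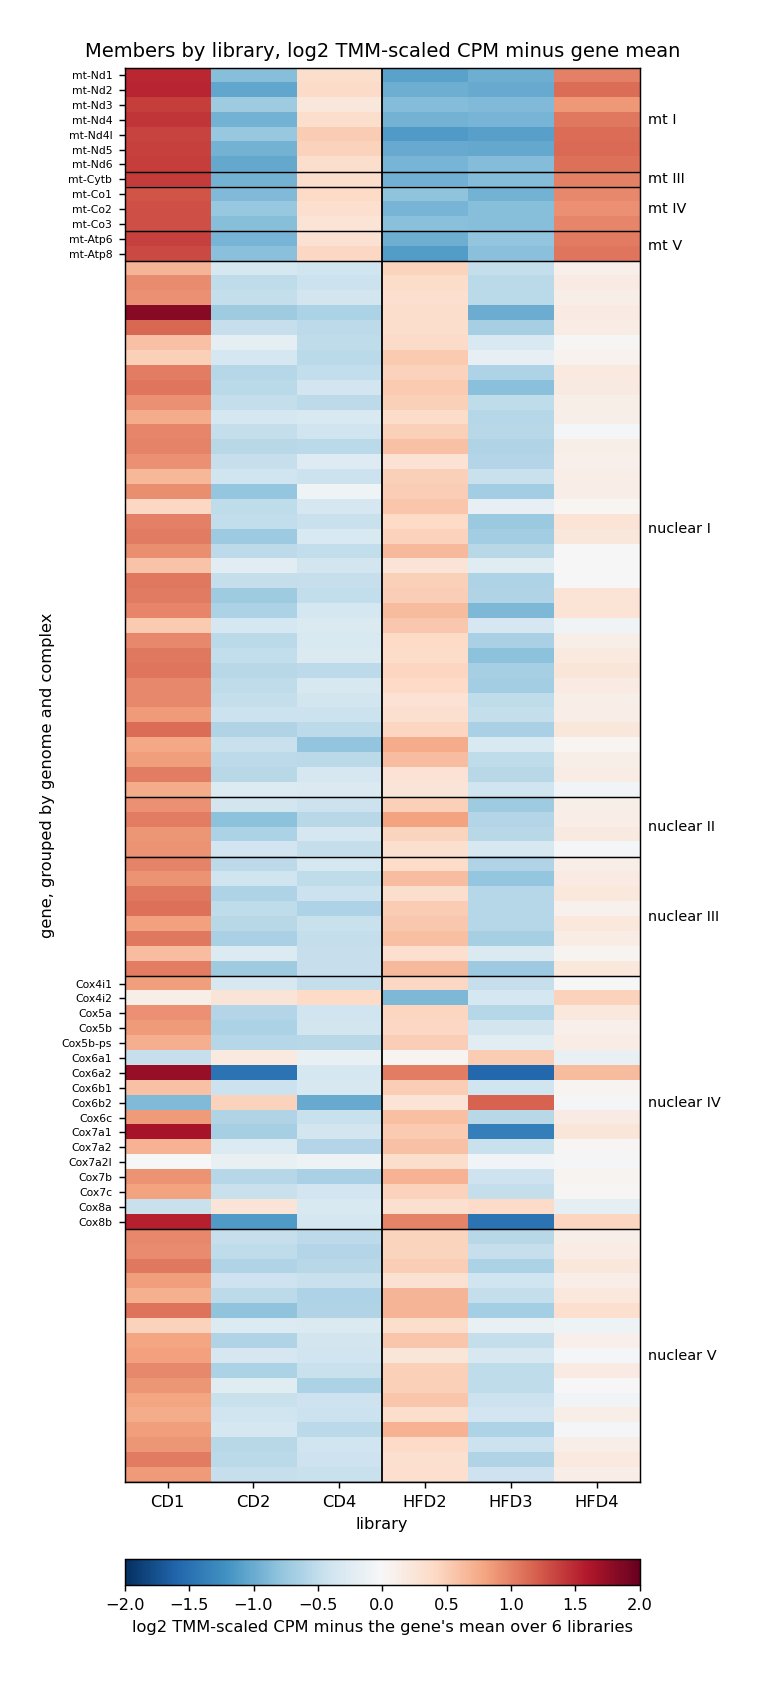
Level of the 95 tested members (rows, by genome and complex) in the 6 libraries (columns) as log2 TMM-scaled CPM minus the gene's mean, red above and blue below it, with a line between CD and HFD and gene symbols for the mt and complex IV rows. The 13 mt rows are red in CD1, CD4 and HFD4, while 78 of the 82 nuclear rows have their 3 highest values in CD1, HFD2 and HFD4.

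In complex I the core flavoprotein and iron-sulphur subunits and the accessory subunits shared this order. Ndufv1, which binds NADH, had 169, 66.0 and 65.0 TMM-scaled CPM in CD and 145, 66.2 and 102 in HFD. CD1 was the highest library for this gene and HFD2 the second. The accessory subunit Ndufa12 varied most in complex I (7.01-fold), with 88.6, 15.3 and 16.1 in CD and 31.9, 12.6 and 28.2 in HFD. Ndufb3 and Ndufa3, accessory subunits of the membrane arm, varied least among the complex I genes named here, by 2.08-fold and 2.11-fold. Ndufa4, the most abundant by FPKM (mean 96.3), carries a complex I symbol and is now known as a subunit of complex IV. It had 294, 96.5 and 102 TMM-scaled CPM in CD and 199, 94.0 and 164 in HFD.

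The 4 genes of complex II, which also turns succinate to fumarate in the tricarboxylic acid cycle, behaved like those of complex I. Sdha, the flavoprotein, had 524, 214 and 205 TMM-scaled CPM in CD and 387, 169 and 299 in HFD. Sdhb, the iron-sulphur subunit, had 192, 53.7 and 64.5 in CD and 165, 62.8 and 104 in HFD. Sdhc and Sdhd, the membrane anchors, spanned 2.85-fold and 2.60-fold over the libraries. In complex III, Uqcr10 and Uqcrb were the most abundant nuclear members (mean FPKM 114 and 112). Uqcrc2, a core protein of the matrix side, had 278, 107 and 115 TMM-scaled CPM in CD and 228, 106 and 181 in HFD, and Uqcrh, the hinge protein, had 193, 104 and 90.9 in CD and 159, 103 and 130 in HFD. Within each diet group the libraries of these genes spread more than the groups differed.

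The nuclear members of complex V, the ATP synthase, had sums of 6286, 2382 and 2352 in CD and 4517, 2386 and 3657 in HFD on TMM-scaled CPM. Atp5b, the catalytic beta subunit, had 1701, 618 and 590 in CD and 1198, 643 and 980 in HFD. Atp5a1, the alpha subunit, had 1377, 513 and 492 in CD and 954, 479 and 767 in HFD. In FPKM, Atp5a1 (mean 207) and Atp5b (mean 192) were also the most abundant of the complex. The genes Atp5g1, Atp5g2 and Atp5g3 encode the same mature c subunit of the membrane ring with different import peptides. Atp5g1 spanned 3.68-fold, Atp5g3 2.62-fold and Atp5g2 1.69-fold, and the FPKM ratio of Atp5g1 to Atp5g2 was 0.567, 0.257 and 0.298 in CD and 0.464, 0.256 and 0.498 in HFD. It was highest in CD1, HFD4 and HFD2.

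Complex IV held the 4 nuclear members that left the common order, and 4 of the 5 that spanned over 4-fold between libraries (Ndufa12 is the fifth). Cox6a2, the heart and muscle form of subunit 6a (chr7:128205435-128206387), had 466, 50.4 and 110 TMM-scaled CPM in CD and 284, 47.1 and 216 in HFD, a span of 9.88-fold. Its common counterpart Cox6a1 (chr5:115345642-115348981) had 50.4, 79.9 and 62.9 in CD and 72.7, 98.8 and 63.0 in HFD. Cox6a1 was lowest where Cox6a2 was highest, in CD1, and highest where Cox6a2 was lowest, in HFD3. The FPKM ratio of Cox6a2 to Cox6a1 was 9.53, 0.651 and 1.81 in CD and 4.03, 0.493 and 3.54 in HFD. It varied 19.3-fold, with group means of 4.0 ± 4.83 (SD, n = 3) and 2.69 ± 1.91 (SD, n = 3).

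Subunit 8 showed the same division. Cox8b, its heart and muscle form in the mouse (chr7:140898945-140900446), had 98.4, 15.3 and 26.2 TMM-scaled CPM in CD and 66.9, 12.0 and 45.0 in HFD. The common form Cox8a (chr19:7215153-7217616) had 39.0, 63.3 and 43.1 in CD and 66.2, 69.0 and 46.2 in HFD. Their FPKM ratio was 4.34, 0.416 and 1.05 in CD and 1.74, 0.299 and 1.68 in HFD, a span of 14.5-fold. Cox7a1, the heart and muscle form of subunit 7a, had 83.4, 16.8 and 20.6 in CD and 38.4, 10.3 and 31.4 in HFD, whereas the common Cox7a2 had 68.2, 35.0 and 28.2 in CD and 63.2, 30.9 and 42.6 in HFD and kept the common order. Their FPKM ratio was 2.16, 0.848 and 1.29 in CD and 1.07, 0.586 and 1.3 in HFD. In these 3 pairs the ratio was highest in CD1 and lowest in HFD3, and the diet groups overlapped.

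The remaining pairs had a rare form. Cox6b2, known as the testis form of subunit 6b, had 3.86, 9.77 and 3.53 TMM-scaled CPM in CD and 8.61, 16.1 and 6.93 in HFD. Its FPKM was 0.0170 to 0.143 times that of Cox6b1, with the highest ratio in HFD3. Cox4i2, a form of subunit 4 known from lung and low oxygen, had 2.24, 2.46 and 2.72 in CD and 1.10, 1.61 and 2.84 in HFD, at counts of 76 to 169 a library. Cox4i1, the common form, was the most abundant nuclear gene of complex IV after Cox6a2 (mean FPKM 164 and 228). Cox7a2l, a factor of respiratory supercomplexes, varied least of all nuclear members, by 1.43-fold. Cox7b2 had 6 counts in HFD2 and 0 in the other five libraries, so it was not tested. Cox5b-ps, which the rule takes in by its transcript type although its symbol is that of a pseudogene, followed the common order, and reads may be shared with Cox5b.

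**Figure D4:**
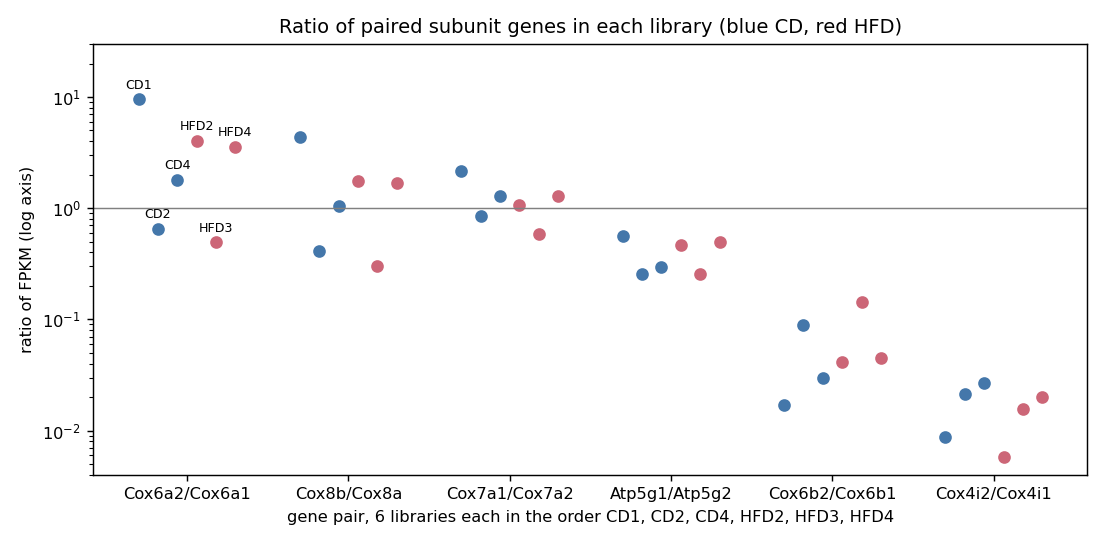
Ratio of FPKM of paired subunit genes (vertical log axis) in each of the 6 libraries, blue for CD and red for HFD. The heart and muscle forms run from 0.493 to 9.53 times the common form for subunit 6a and from 0.299 to 4.34 times for subunit 8, with the top value in CD1 and the bottom value in HFD3.

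The promoters of 2 common forms and 2 heart and muscle forms are printed because the balance of the forms varied between libraries. Each is the RefSeq window (GRCm38.p6) from 250 bases before to 50 after the start, 5′ to 3′. Capitals mark the letters GCATGCGC, the core bound by NRF1, and CCGGAAG, an ETS core, on either strand. The run of capitals in Cox6a1 that holds the NRF1 core is that core on both strands, overlapping.
Cox6a1 (chr5:115348909-115349208, minus strand): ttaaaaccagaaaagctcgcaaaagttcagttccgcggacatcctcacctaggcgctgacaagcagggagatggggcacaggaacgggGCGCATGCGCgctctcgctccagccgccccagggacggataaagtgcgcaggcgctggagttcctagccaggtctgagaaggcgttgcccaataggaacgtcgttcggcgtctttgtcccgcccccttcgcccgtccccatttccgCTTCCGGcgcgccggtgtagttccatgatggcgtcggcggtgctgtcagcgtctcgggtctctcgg
Cox8a (chr19:7217567-7217866, minus strand): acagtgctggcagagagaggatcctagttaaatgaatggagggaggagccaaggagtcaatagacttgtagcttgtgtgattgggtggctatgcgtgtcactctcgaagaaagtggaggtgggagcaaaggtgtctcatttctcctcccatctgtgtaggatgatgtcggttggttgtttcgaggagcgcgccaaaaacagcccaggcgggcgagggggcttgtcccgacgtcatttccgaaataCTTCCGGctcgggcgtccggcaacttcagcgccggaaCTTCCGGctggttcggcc
Cox8b (chr7:140900397-140900696, minus strand): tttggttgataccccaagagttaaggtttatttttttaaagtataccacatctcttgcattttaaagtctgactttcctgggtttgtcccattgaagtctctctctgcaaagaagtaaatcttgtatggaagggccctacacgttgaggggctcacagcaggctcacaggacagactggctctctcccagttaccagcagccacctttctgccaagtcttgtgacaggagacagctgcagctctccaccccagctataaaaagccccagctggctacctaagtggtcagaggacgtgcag
Cox7a1 (chr7:30183921-30184220, plus strand): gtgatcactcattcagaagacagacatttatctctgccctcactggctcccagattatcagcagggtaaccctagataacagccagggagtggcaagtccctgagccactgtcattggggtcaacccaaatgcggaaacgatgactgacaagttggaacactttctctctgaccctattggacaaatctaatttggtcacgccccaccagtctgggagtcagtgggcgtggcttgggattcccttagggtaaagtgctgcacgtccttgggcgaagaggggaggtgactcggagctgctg

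Cox6a1 thus held an NRF1 and an ETS core and Cox8a the ETS core at 2 places, while the windows of Cox8b, Cox7a1 and Cox7a2 held none of these letters nor AAGATGGC, a YY1 core. GC content was 63.0% for Cox6a1, 56.0% for Cox8a, 48.3% for Cox8b, 53.0% for Cox7a1 and 56.7% for Cox7a2. Of the 83 nuclear members 68 matched by symbol, with 73 promoters. The NRF1 core stood in 13.7% of these and in 2.71% of all 32851 promoters, the ETS core in 23.3% against 8.86%, and the YY1 core in 13.7% against 2.75%. A match describes letters in this window only. No window was available for Cox6a2, Cox4i1 or Cox4i2, so Cox6a1 stands here without its heart and muscle partner.

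The diet comparison asked whether long-term high-fat feeding changed the expression of these subunits in the bone of aged mice. No member passed the test. edgeR's quasi-likelihood test, with Benjamini-Hochberg adjustment over 19831 genes, called 0 of 95 members at an adjusted p under 0.05, against 0% of all genes tested. At an unadjusted p under 0.05 it held 0 of 95 members, against 9.66% of all genes. DESeq2 called 0 members, against 1.65% of 20764 genes. The diet groups did not overlap in TMM-scaled CPM for 0 members, against 15.2% of all genes. In bulk samples, fewer cells of a type and less RNA per cell cannot be told apart.

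The fitted log2 fold changes (HFD minus CD) were below 0 for all 13 mt members, with a median of -0.52 against -0.03 over all genes. They ran from -0.64 for mt-Nd1 (SE 1.09, 95% interval -3.19 to 1.91, edgeR adjusted p = 0.862) to -0.44 for mt-Co3 (SE 0.95, interval -2.67 to 1.78, edgeR adjusted p = 0.893). The 95% intervals of all 13 reach beyond 1 log2 unit in either direction, so differences of that size were not detectable with 3 libraries a group. By complex the mt medians were -0.56 for complex I, -0.52 for the lone member of complex III, and -0.48 for complexes IV and V. The mt median was -0.23 on plain library totals, where that of all genes was 0.24. Leaving out 1 library moved it between -1.47 (without HFD4) and 0.16 (without CD1), so its sign turned without that library.

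The nuclear members had a median log2 fold change of -0.07 under TMM, with 24 above and 58 below 0, and of 0.36 on plain library totals, with 79 above and 3 below. By complex the TMM medians were -0.13 for complex I, -0.09 for complex II, -0.06 for complex III, 0.06 for complex IV and -0.05 for complex V. Without CD1 the nuclear median was 0.55 and without HFD2 or CD2 it was -0.32. The smallest p of all members was that of Cox6b2 (0.88, SE 0.51, interval -0.31 to 2.07, edgeR unadjusted p = 0.124, adjusted p = 0.604). Cox8a had 0.32 (interval -0.32 to 0.96, edgeR adjusted p = 0.733) and Cox6a1 0.28 (interval -0.36 to 0.92, edgeR adjusted p = 0.761). At the other end stood Ndufa12 with -0.72 (interval -2.43 to 0.99, edgeR adjusted p = 0.770), Cox7a1 with -0.59 (interval -2.26 to 1.08) and Cox4i2 with -0.42 (interval -1.45 to 0.61).

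**Figure D5:**
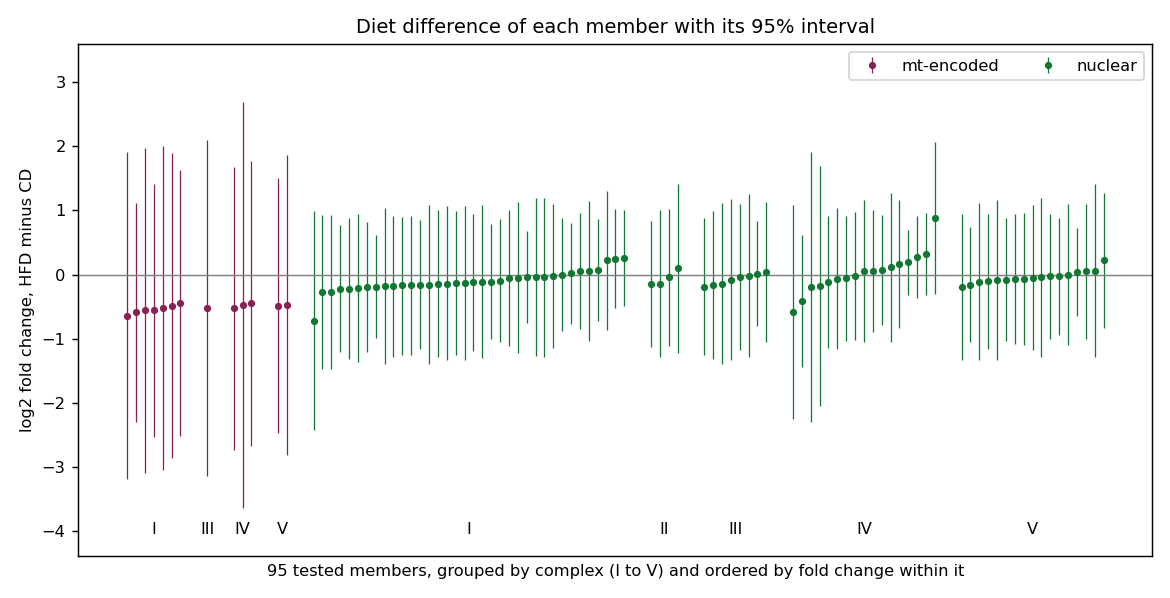
Log2 fold change (HFD minus CD, edgeR) of the 95 tested members with its 95% interval, purple for mt-encoded and green for nuclear, grouped by complex. Each interval crosses 0, with the 13 mt points between -0.64 and -0.44 and the nuclear points between -0.72 and 0.88.

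Among the nuclear members of complexes II, III and V the highest and lowest fitted values lay between -0.19 and 0.22. They were those of Sdhb (0.10) and Sdhd (-0.15) in complex II, Uqcrc2 (0.04) and Uqcr10 (-0.19) in complex III, and Atp5e, the epsilon subunit (0.22), and Atp5o, the stalk protein that confers oligomycin sensitivity (-0.19), in complex V. Their 95% intervals were -1.23 to 1.42, -1.13 to 0.83, -1.05 to 1.13, -1.26 to 0.89, -0.84 to 1.28 and -1.34 to 0.95 in that order.

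Genes that build, feed or control the chain were read from lists beside the members, and edgeR called 0 genes of each. Of 51 tested assembly factors 18 had a fitted value above and 33 below 0 (median -0.09), with 0 at an unadjusted p under 0.05 and 0 called by DESeq2. Uqcc2, an assembly factor of complex III, was the most abundant of them, with 54.0, 20.5 and 25.1 TMM-scaled CPM in CD and 30.4, 15.7 and 22.9 in HFD. Cox17, the copper chaperone of complex IV, had 21.1, 22.8 and 18.2 in CD and 30.9, 28.3 and 23.1 in HFD, with a log2 fold change of 0.41 (SE 0.21, edgeR adjusted p = 0.580). Cox17 and Ndufaf3, an assembly factor of complex I, were the 2 of 51 whose groups did not overlap, a smaller share than the 15.2% of all genes. The 30 genes of mitochondrial DNA upkeep and transcription had a median of 0.02 and the 13 regulators of mitochondrial biogenesis 0.06, each with 0 genes at an unadjusted p under 0.05 and 0 by DESeq2. Among the regulators, Esrra, a nuclear receptor that drives these genes, had 83.3, 36.1 and 40.9 in CD and 71.4, 32.8 and 49.8 in HFD, and its log2 level correlated with the nuclear sum at 0.98. Perm1, a muscle partner of this program, had 109, 20.6 and 42.3 in CD and 135, 15.3 and 56.4 in HFD. The regulators did not share a direction. Pprc1 (-0.89), Nrf1 (-0.84), Gabpb1 (-0.75), Yy1 (-0.69) and Gabpa (-0.36) correlated negatively with the nuclear sum. The other regulators correlated with it at 0.20 (Ppargc1b) to 0.98 (Esrra).

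All 17 genes of the tricarboxylic acid cycle had CD1, HFD2 and HFD4 as their 3 highest libraries, as the nuclear members did, with a median log2 fold change of -0.13, 0 genes at an unadjusted p under 0.05 and 0 called by DESeq2. Among 29 tested carriers and other feeders of the chain, 1 gene had an unadjusted p under 0.05 in edgeR, against 9.66% of all genes, and DESeq2 called 0. That gene was Prodh, proline dehydrogenase, with 7.09, 9.84 and 8.03 TMM-scaled CPM in CD and 12.6, 16.5 and 10.3 in HFD (log2 fold change 0.66, SE 0.27, edgeR adjusted p = 0.509). Slc25a4, the ADP and ATP exchanger of heart and muscle, was the most abundant, with 2011, 387 and 491 in CD and 1069, 260 and 989 in HFD. The 78 mitochondrial ribosomal protein genes, which make the machine that translates the mt members, had a median of 0.05, and 35 of them (44.9%) had the 3 highest libraries of the nuclear members. Of 75 cytosolic ribosomal protein genes, 1 (1.33%) had that set. Both ribosomal lists had 0 genes at an unadjusted p under 0.05 in edgeR and 0 called by DESeq2.

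Markers of skeletal muscle partly shared the order of the nuclear members, without a fixed proportion to them. All 25 markers of the list were counted in every library. On TMM-scaled CPM 18 (72.0%) had CD1, HFD2 and HFD4 as their 3 highest libraries, and on plain CPM 13 (52.0%). The ratio of nuclear member counts to muscle list counts, which does not depend on the scaling, was 0.122, 0.205 and 0.254 in CD and 0.254, 0.635 and 0.190 in HFD. It spanned 5.22-fold, wider than the ratio of mt to nuclear counts, with its lowest value in CD1 and its highest in HFD3. The summed TMM-scaled CPM of the list was 133097, 29722 and 24552 in CD and 46236, 9430 and 49318 in HFD, a range of 24552 to 133097 against 9430 to 49318. On this scale, where a library's scaling factor enters all the sums, it correlated with the nuclear sum at 0.88 and with the mt sum at 0.68 over the 6 libraries. Cox7a1 was the nuclear member most like it (0.97), and Cox6a1 the least (-0.88). A fit with a muscle covariate used another measure than this sum, the mean log2 level of the markers, to which each marker adds alike. Low markers such as Myh7 (0.0729 TMM-scaled CPM in CD2, 178 in CD4) weigh more in it. With this covariate the median log2 fold change was -0.38 for the mt members and -0.02 for the nuclear members. In that fit edgeR called 0 members, and 1 of 95 had an unadjusted p under 0.05, against 16.6% of all genes. The 8 tested markers of brown fat, a tissue known for dense mitochondria, together took 0.00144 to 0.00464% of a library's counts. Ucp1, its defining gene, had 3 counts in HFD2 and 0 in the other libraries. Other markers of that list were counted, with 447 to 1587 counts a library for Dio2 and 797 for Zic1 in HFD2. Of the 8, 3 had an unadjusted p under 0.05 in edgeR, against 9.66% of all genes. These did not share a direction, with log2 fold changes of -1.38 for Dio2, -1.11 for Prdm16 and 2.38 for Cidea. Of the 8, edgeR called 0 and DESeq2 called 1, against 1.65% of all genes. Among the bone markers that bear on the labelled tissue, all 14 genes of the osteoblast and osteocyte list and all 9 of the osteoclast list were counted in every library. The first list took 0.511, 2.64 and 8.10% of the counts in CD and 0.494, 0.236 and 0.761% in HFD. The osteoclast list took 0.0914, 0.202 and 0.639% in CD and 0.0931, 0.0990 and 0.0762% in HFD, so the groups overlapped on this scale. On TMM-scaled CPM they did not, with sums of 1427 to 6772 in CD and 737 to 920 in HFD. Neutrophil granule genes summed to 5099 to 15478 TMM-scaled CPM in CD and 7988 to 16068 in HFD. The part of these cell types in the values of the members was not tested.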

How the data were processed

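Polyadenylated RNA of bone from 3 CD and 3 HFD libraries was sequenced in pairs on a NovaSeq instrument. The authors deposited 1 table with a gene count and an FPKM for each of 32000 genes and 6 libraries, at 54.5 to 61.6 M (mega-counts) a library. The deposited FPKM equalled the count times a constant of the gene and a constant of the library. This held within 0.440% for 98% of the values of 12388 genes with at least 100 counts in every library. The submitters' processing notes list the aligner HISAT2 (2.0.4), the assembler StringTie (1.3.4d), cutadapt (1.9), edgeR, DESeq2 and UMI-tools with no role given, while the study's methods name a different aligner and counter. How the counts were made, whether strand was used and how reads of identical copies were handled is therefore not settled, and counts may be of molecules. If counts were estimated per transcript, small values may not be whole reads.

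Counts were tested with edgeR 4.0.16 in R 4.3.3 (quasi-likelihood test, TMM scaling, no covariate, genes kept by filterByExpr at a minimum count of 10, Benjamini-Hochberg adjustment over 19831 genes, threshold 0.05), after tests on simulated data. DESeq2 1.42.0 was the alternative tool. Other alternatives changed the scaling, the filter, the covariate, the replicate block or left out a library, and 2 scalings without mt genes and their copies were added after seeing the data. Intervals are 95% intervals of the fit. Summed levels, ratios and correlations carry no test. An exact permutation test of 3 against 3 libraries cannot go below p = 0.1. Whether shared replicate numbers (2 and 4) pair the libraries is not settled, and the main test used no pairing.

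The members follow from a rule on gene names, and the members and the lists were chosen with earlier results of these data known. Members named are all mt genes, the isoform pairs and, for each complex, those with the 2 highest and 2 lowest fold changes, the 2 smallest p and the 2 highest mean FPKM. From each list the gene with the highest mean FPKM, that with the smallest p and those most like the summed level could be named. Ndufv1, Ndufa4, Cox7a2l, Cox5b-ps, Ucp1 and the slow-fibre genes were named for their role or after their values were seen. The same holds for Cidea, Prdm16 and the regulators beside Esrra and Perm1. Some genes that the rule would name are not reported here. Copies were found by aligning GENCODE M21 transcripts (GRCm38).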

Additional observations from a re-analysis of the deposited data

How the results depend on the processing

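In the edgeR test 0 members were called under every alternative run, and DESeq2 also called 0. Over all genes DESeq2 called 342 where edgeR called 0, and leaving out 1 library gave 0 to 24 calls, the 24 without CD4. The median log2 fold change of the mt members lay between -1.47 and 0.16 with 1 library left out, and that of the nuclear members between -0.32 and 0.55. Replicate numbers 2 and 4 are shared between the groups. Deviations of the like-numbered libraries correlated at -0.138 (CD2 and HFD2) and 0.16 (CD4 and HFD4), while CD2 and HFD3 had 0.417. The 0.16 was the highest value for CD4 and for HFD4, which had 0.142 with CD1. Correlations over so few libraries cannot settle whether the numbers pair the libraries. With the replicate block, which drops CD1 and HFD3 from the contrast, the mt median was 0.32 and the nuclear median 0.74, with 0 members called. In that fit 71 of 95 members had an unadjusted p under 0.05 in edgeR, against 14.9% of all genes. The fit rests on CD2, CD4, HFD2 and HFD4 and leaves few residual degrees of freedom. The members also moved together between libraries, so the 71 are not separate results and give no conclusion on diet.

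Markers of the intestinal epithelium summed to 167 TMM-scaled CPM in CD4 and to 146 to 221 in HFD, but to 24.6 in CD1 and 14.6 in CD2. CD4 alone against HFD gave an mt median of -0.31 and a nuclear median of 0.50, with the lone library assumed to vary like the HFD group. Many members had fitted values near 0, and their signs changed under several settings. Of 95 members, 55 had the other sign on plain library totals, where the median of all genes was 0.24 in place of -0.03, and 53 on totals without mt genes and copies, a scaling added after seeing the data. The number was 21 under upper quartile scaling, 6 in DESeq2, 71 with the replicate block, and 4 (without HFD4) to 70 (without CD1) with 1 library left out. Counts were low for Cox4i2 (76 to 169 a library) and Cox7b2 (0 to 6). The cause of these changes was not tested.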

Other observations

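The 2 mitochondrial ribosomal RNAs are made from the same strand of polycistronic transcripts as the mt members other than mt-Nd6. They are largely removed when polyadenylated RNA is selected. They took 0.599, 0.327 and 0.596% of the counts in CD1, CD2 and CD4 and 0.272, 0.274 and 0.632% in HFD2, HFD3 and HFD4. As for the mt members, CD1, CD4 and HFD4 were the 3 highest libraries.

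Within the skeletal muscle list, genes of slow fibres, which are known for dense mitochondria, did not follow the nuclear members. These genes were chosen after their values were seen. Myh7, the slow myosin heavy chain, had counts of 130, 5 and 10319 in CD1, CD2 and CD4 and of 16063, 1112 and 5708 in HFD2, HFD3 and HFD4. Tnni1, the slow troponin I, had 28, 9 and 3318 in CD and 4085, 520 and 2546 in HFD. CD1, which had the highest levels of Cox6a2, Cox7a1 and Cox8b and 1018845 counts of the fast myosin Myh4, was thus among the 2 libraries with the fewest slow-fibre counts, together with CD2. No explanation was tested.

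A further 9 names matched the symbols of the members without a protein-coding transcript type. Of these, Atp5pb-ps had 169 to 344 counts a library and Cox6c2 38 to 133, while Uqcrh-ps1 had 11 counts in CD2, 10 in HFD3, 3 in HFD2 and 0 in the other three.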
